A study of Mus musculus with 27 samples.

Results

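The interferon response genes described here are 9 mouse genes taken by symbol from a table of 53379 genes: the signalling genes Stat2, Irf9 and Irf7, and the interferon-stimulated genes Isg15, Usp18, Oasl2, Ifit1, Ifit3 and Bst2. All 9 had a row in the table. They were measured in E14 mouse embryonic stem cells kept on gelatin with LIF, the cytokine that holds such cells undifferentiated. Every culture received siRNA, so no group is free of transfection. The control group received siRNA against eGFP (siGFP), the second group siRNA against PTBP1 (siPTBP1), and the third siRNAs against PTBP1 and PTBP2 (siPTBP1+siPTBP2, the double knockdown). PTBP1 and PTBP2 are polypyrimidine tract-binding proteins that regulate splicing, and the study was made to follow retained introns. Cells were transfected again after 24 hours and taken 48 hours after the first transfection. RNA from cytoplasm (CY), nucleoplasm (NP) and chromatin (CH) was selected for polyadenylated molecules and sequenced in stranded libraries, giving 9 groups of 3 libraries and 27 libraries in all. The series calls the replicates biological, and each p-value rests on the spread among these libraries alone.

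Type I interferons bind a cell surface receptor whose kinases JAK1 and TYK2 phosphorylate STAT proteins, STAT2 among them. STAT2 joins IRF9 in the complex ISGF3, which binds interferon-stimulated response elements (ISREs) in the promoters of antiviral genes. Embryonic stem cells are known for making little interferon and responding weakly to it, and they hold some antiviral genes at a constant level without it.

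The promoters of 8 of the 9 genes, all but Usp18, had an entry in RefSeq (build GRCm38.p6), in 9 windows because Irf9 has more than one start. The core of the ISRE (GAAA, then 2 bases of any kind, then GAAA) was searched on both strands of the 250 bases before each start, and overlapping matches were counted. It was found in 5 of the 9 windows, those of Isg15, Bst2, Stat2, Ifit3 and Ifit1, against 978 of 32851 promoters (2.98%) genome-wide. The stretches that hold the matches are shown because ISREs are the elements that ISGF3 binds. Each is written 5′ to 3′ on the strand of its gene, with the matched bases in capitals. Matches to the opposite strand begin and end with TTTC here.
Isg15, chr4:156200855-156200916, minus strand: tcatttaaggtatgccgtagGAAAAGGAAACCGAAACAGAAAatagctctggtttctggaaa
Bst2, chr8:71537567-71537622, minus strand: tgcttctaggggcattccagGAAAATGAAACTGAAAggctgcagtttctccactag
Stat2, chr10:128270256-128270305, plus strand: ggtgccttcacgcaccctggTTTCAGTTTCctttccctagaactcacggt
Ifit3, chr19:34583353-34583436, plus strand: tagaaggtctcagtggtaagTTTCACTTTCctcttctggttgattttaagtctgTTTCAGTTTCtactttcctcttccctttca
Ifit1, chr19:34640765-34640833, plus strand: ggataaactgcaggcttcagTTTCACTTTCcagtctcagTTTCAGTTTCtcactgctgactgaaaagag

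The matches differed in number and distance among the 5 promoters. Isg15 had 3 overlapping matches, starting 78, 72 and 66 bases before its start. Bst2 had an overlapping pair starting 130 and 124 bases before its start. In Ifit3 the matches lay 156 and 122 bases before the start, and in Ifit1 104 and 85 bases. Stat2 had 1 match, 222 bases before its RefSeq start at position 128270498, which lies outside the GENCODE M21 span of the gene given below. The bases after that start were found in no GENCODE transcript of Stat2, whereas those of the other 8 windows were. The windows of Oasl2 and Irf7 and both windows of Irf9 held no match to these letters.

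Levels are given in TPM, a per-length unit scaled to the same total in each library, which the authors deposited for each gene and library. Testing required 3 or more of the 27 libraries to reach a TPM of 1, which 5 members did: Isg15, Oasl2, Irf9, Stat2 and Bst2. Differences are on the log2(TPM + 1) scale and understate the change of low genes. Adjusted p-values are from limma across all 20611 tested genes, with a call at an adjusted p under 0.05. Libraries with the same replicate number deviated together in these data, so a second limma fit held the replicate number as a block. For members its value is given wherever it changes a call, and a gene called by that fit alone is said to be called with the block.

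The siRNA targets were checked first. Ptbp1 averaged 549 ± 56.2 TPM (SD, n = 3) in siGFP cytoplasm, 123 ± 18.1 in siPTBP1 and 142 ± 50.1 in the double knockdown, and in all 3 fractions every knockdown library was below every siGFP library. As shares of the siGFP mean these were 22.4% and 25.9%, against 47.2% and 55.8% in chromatin. The chromatin differences were called with the block alone (adjusted p = 0.00541 and 0.0303, 0.16 and 0.367 without, limma). Ptbp2 in cytoplasm was 3.52, 15.0 and 15.45 TPM in siGFP and 1.45, 7.29 and 7.55 in the double knockdown, and in chromatin 22.83, 91.7 and 87.83 against 23.62, 73.84 and 67.34. The replicate 1 libraries stood apart from the rest in every group. On the first component of the deviations from the group means, which held 39.4% of their variance, the lowest replicate 1 score was 38.9 and the highest of the other libraries −11.4. Where leaving them out changed the call of a member, the result is given with and without them. Between 11837 and 19509 genes reached 1 TPM in a library, and the depth behind a TPM value is unknown. All 15 pluripotency markers were present in the cells. Of 9 immune cell markers, Ptprc, Lyz2, Tyrobp and Csf1r stayed at or below 0.67, 0.08, 0.51 and 0.36 TPM in every library, while Cd68 reached 95.02 and Cd3e 5.43. Of 10 fibroblast markers, Col1a1, Col1a2 and Thy1 reached 104.59, 30.1 and 24.41 TPM, while Lum, Dcn and Postn stayed at or below 0.03, 0.91 and 0.95.

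In control cells the family ranged from a highly expressed antiviral gene to transcripts barely above 0. Bst2 was the most abundant member in cytoplasm and Stat2 or Bst2 in chromatin, while Ifit1, Ifit3, Irf7 and Usp18 stayed under 1 TPM in all 27 libraries. In siGFP cytoplasm Bst2 averaged 83.6 ± 29.8 TPM (SD, n = 3), Stat2 13.6 ± 6.7, Irf9 6.0 ± 0.689, Isg15 5.95 ± 1.95 and Oasl2 1.79 ± 0.327. Irf9 and Isg15 differed by less than the spread of either. The Stat2 libraries lay above both of them and below those of Bst2.

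Stat2 (chr10:128270559-128292849, plus strand) encodes a subunit of the ISGF3 complex. Its siGFP libraries gave 9.02, 21.33 and 10.59 TPM in cytoplasm, 11.25, 21.88 and 8.48 in nucleoplasm, and 72.41, 148.75 and 78.29 in chromatin. The chromatin libraries did not overlap those of the other fractions, and replicate 2 was the highest in each fraction. Against cytoplasm the chromatin level differed by 2.80 ± 0.48 on the log2 scale (SE; adjusted p = 3.05e-05, limma). The median of all tested genes in that comparison was 0.95, so Stat2 lay above the shift that genes shared.

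Irf9 (chr14:55603571-55610030, plus strand) encodes the DNA-binding subunit of ISGF3. It was at 5.21, 6.35 and 6.45 TPM in siGFP cytoplasm, 6.01, 6.63 and 6.65 in nucleoplasm, and 23.88, 29.05 and 36.23 in chromatin. Chromatin was again separate, with a difference of 2.12 ± 0.22 from cytoplasm (adjusted p = 5.48e-08, limma). An exon of Irf9 overlaps an exon of Rnf31 on the same strand in GENCODE M21, so some reads may belong to either gene.

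Isg15 (chr4:156199424-156200818, minus strand) encodes a ubiquitin-like protein that is attached to other proteins during antiviral responses, and its distribution was the reverse. Its siGFP libraries gave 8.09, 5.49 and 4.27 TPM in cytoplasm, 9.47, 8.0 and 5.02 in nucleoplasm and 3.6, 1.69 and 2.24 in chromatin. All 3 chromatin libraries lay below every library of the other fractions. The difference of chromatin from cytoplasm was −0.99 ± 0.36 (adjusted p = 0.0192, limma), and from nucleoplasm −1.27 ± 0.36 (adjusted p = 0.00498). The first of these calls was lost without siGFP CH replicate 2 (0.086), without siGFP CH replicate 3 (0.0502) or without siGFP CY replicate 1 (0.0972), and with a pseudocount of 0.1 (0.059).

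Oasl2 (chr5:114896936-114912234, plus strand) encodes a 2′-5′ oligoadenylate synthetase-like protein with ubiquitin-like repeats. In siGFP cells it was at 1.59, 2.17 and 1.62 TPM in cytoplasm, 3.6, 5.47 and 2.22 in nucleoplasm, and 5.08, 10.33 and 9.58 in chromatin. It was lowest in cytoplasm, with no overlap between cytoplasm and either nuclear fraction. Chromatin differed from cytoplasm by 1.69 ± 0.32 (adjusted p = 8.19e-05, limma), which fell to 0.15 (adjusted p = 0.61) where all libraries were first brought to 1 distribution by quantile normalization. Nucleoplasm differed from cytoplasm by 0.72 ± 0.32 (adjusted p = 0.169, and 0.00977 with the block). Chromatin differed from nucleoplasm by 0.98 ± 0.32 (adjusted p = 0.0135), a call that was lost with median-ratio scaling (0.41, adjusted p = 0.238), with quantile normalization (0.02, 0.96) and with the compared groups alone (0.0666). It was also lost without siGFP CH replicate 2 (0.0694), siGFP CH replicate 3 (0.0557) or siGFP NP replicate 3 (0.0888).

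Bst2 (chr8:71534255-71537456, minus strand) encodes tetherin, a membrane protein that holds budding virus particles at the cell surface. It was at 78.68, 115.58 and 56.57 TPM in siGFP cytoplasm, 160.18, 164.37 and 144.24 in nucleoplasm and 91.34, 77.05 and 57.06 in chromatin. The nucleoplasm libraries were the highest and overlapped neither other fraction, whereas cytoplasm and chromatin overlapped. Nucleoplasm differed from cytoplasm by 0.95 ± 0.29 (adjusted p = 0.0333, limma), a call that was lost under other scalings (0.334 with median-ratio scaling). The same call was lost without the replicate 1 libraries (0.118) and without 5 of the 6 single libraries, with a lowest difference of 0.70 (adjusted p = 0.196) without siGFP CY replicate 3. Chromatin differed from nucleoplasm by −1.07 ± 0.29 (adjusted p = 0.00434).

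Across the tested members, 4 of 5 were called between chromatin and cytoplasm, 5 of 5 between chromatin and nucleoplasm, and 1 of 5 between nucleoplasm and cytoplasm. Of all tested genes, 66.0%, 51.5% and 12.8% were called in these comparisons, in either direction. TPM is scaled within each library, and the median difference of all tested genes between chromatin and cytoplasm was 0.95 as deposited, 0.34 with median-ratio scaling and −0.12 with quantile normalization. Stat2 and Irf9 were called higher and Isg15 lower in chromatin under each of these scalings. Bst2, at −0.12 between chromatin and cytoplasm as deposited, was called lower with median-ratio scaling (−1.18, adjusted p = 0.00763) and with quantile normalization (−0.81, adjusted p = 0.0386).

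**Figure D1:**
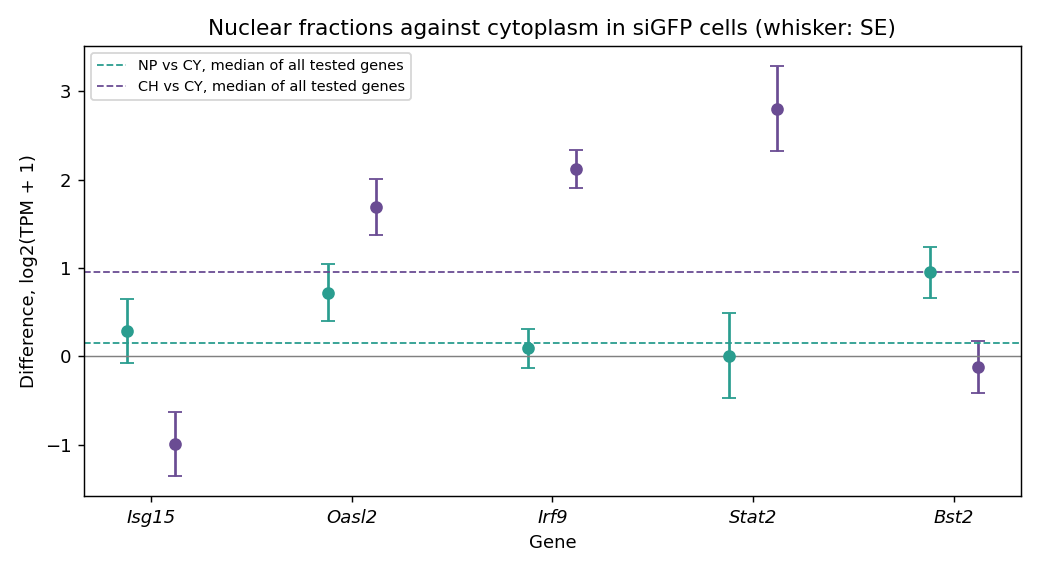
Differences of nucleoplasm (NP) and chromatin (CH) from cytoplasm (CY) in siGFP cells on the log2(TPM + 1) scale for the 5 tested members; points are limma estimates, whiskers the SE, dashed lines the median of all tested genes. Stat2 (2.80), Irf9 (2.12) and Oasl2 (1.69) lie above the chromatin median of 0.95, and Bst2 (−0.12) and Isg15 (−0.99) below it.

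Knockdown of PTBP1, alone or with PTBP2, went with lower levels of Isg15 and Oasl2, whereas no difference of Stat2, Irf9 or Bst2 was called by either fit. Isg15 was lower than its same-numbered siGFP library in 18 of 18 pairs over the 6 knockdown groups, and Oasl2 in 16 of 18. The counts were 15 for Irf9, 15 for Stat2 and 6 for Bst2, and among the members too low to test 14 for Usp18, 13 for Ifit1, 13 for Ifit3 and 10 for Irf7. Each siGFP library served both knockdowns, so the pairs are not independent, and the share of all tested genes with such counts was not computed. Outside the members, Ifitm1 and Psme2, which neither fit called, were also below in every pair. Without the block, 0 of the 5 tested members were called in any of the 6 comparisons with siGFP, where 0.0679%, 0.0534% and 0.126% of all tested genes were called lower for siPTBP1 and 0.0922%, 0.0631% and 0.102% for the double knockdown in CY, NP and CH. At an unadjusted p under 0.05 there were 0, 2 and 2 members for siPTBP1 and 2, 2 and 1 for the double knockdown. With the block, 0, 2 and 2 members were called for siPTBP1 and 1, 2 and 1 for the double knockdown, all of them lower. The share of all tested genes called lower with the block in the same order was 0.495%, 0.684% and 0.631% for siPTBP1 and 0.951%, 0.704% and 0.475% for the double knockdown. Isg15 had every knockdown library below every control in 4 of the 6 comparisons and Oasl2 in 2. This held for 2.18%, 4.67% and 1.81% of all tested genes in siPTBP1 and 2.28%, 5.57% and 1.67% in the double knockdown. In bulk RNA, fewer cells carrying a transcript and less of it per cell cannot be told apart.

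On the log2(TPM + 1) scale the largest differences of Isg15 were in nucleoplasm, and as a share of the siGFP mean the lowest level was in double knockdown chromatin. Its nucleoplasm libraries gave 9.47, 8.0 and 5.02 TPM in siGFP, 2.97, 1.37 and 1.79 in siPTBP1, and 3.47, 1.05 and 1.13 in the double knockdown. Both knockdowns lay wholly below the control, at 27.3% and 25.1% of the siGFP mean. The differences were −1.48 ± 0.36 and −1.62 ± 0.36 (SE; adjusted p = 0.136 and 0.0791, limma), and with the block the adjusted p-values were 0.00162 and 0.0007. Without the replicate 1 libraries both were called in the fit with no block (adjusted p = 0.0212 and 0.00791). Leaving out 1 library, double knockdown NP replicate 1, also gave a call in the double knockdown (adjusted p = 0.0241).

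In chromatin Isg15 read 3.6, 1.69 and 2.24 TPM in siGFP, 2.2, 0.33 and 0.32 in siPTBP1 and 0.37, 0.17 and 0.51 in the double knockdown. The double knockdown libraries, at 13.9% of the siGFP mean, were all below the control, while siPTBP1 replicate 1 overlapped it. The differences were −0.95 ± 0.36 for siPTBP1 (adjusted p = 0.442, 0.038 with the block) and −1.35 ± 0.36 for the double knockdown (adjusted p = 0.123, 0.00368 with the block). Without the replicate 1 libraries they were −1.16 and −1.15 (adjusted p = 0.0497 and 0.0472, limma with no block).

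In cytoplasm Isg15 gave 8.09, 5.49 and 4.27 TPM in siGFP, 4.48, 2.27 and 2.75 in siPTBP1 and 2.11, 2.84 and 1.89 in the double knockdown. The siPTBP1 group overlapped the control by its replicate 1 library, and the double knockdown, at 38.3% of the siGFP mean, did not. The double knockdown differed by −1.06 ± 0.36 (adjusted p = 0.509, 0.0172 with the block). The siPTBP1 difference of −0.74 ± 0.36 was not called by either fit (adjusted p = 1.0 and 0.144). Without the replicate 1 libraries neither difference was called in the fit with no block.

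Oasl2 fell with the block in both nuclear fractions of siPTBP1. In nucleoplasm it read 3.6, 5.47 and 2.22 TPM in siGFP, 0.95, 1.59 and 0.76 in siPTBP1 and 1.24, 2.45 and 0.99 in the double knockdown. The siPTBP1 libraries lay wholly below the control, and 1 double knockdown library overlapped it. The differences were −1.14 ± 0.32 for siPTBP1 (adjusted p = 0.268, 0.00363 with the block) and −0.88 ± 0.32 for the double knockdown (adjusted p = 0.603, 0.0266 with the block). Unlike Isg15 in the nuclear fractions, Oasl2 was not called against siGFP in any fraction by the fit with no block once the replicate 1 libraries were left out.

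In chromatin Oasl2 was at 5.08, 10.33 and 9.58 TPM in siGFP, 2.97, 3.73 and 3.83 in siPTBP1 and 3.98, 6.24 and 4.73 in the double knockdown. Again siPTBP1 was separate from the control, at 42.1% of its mean, and the double knockdown was not. The siPTBP1 difference was −1.0 ± 0.32 (adjusted p = 0.254, 0.00962 with the block). That of the double knockdown, −0.61 ± 0.32, was not called (adjusted p = 0.79, 0.137 with the block). Cytoplasmic Oasl2 averaged 1.79 ± 0.327, 1.38 ± 0.931 and 1.56 ± 0.789 TPM in the 3 treatments, with overlapping libraries and no call.

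**Figure D2:**
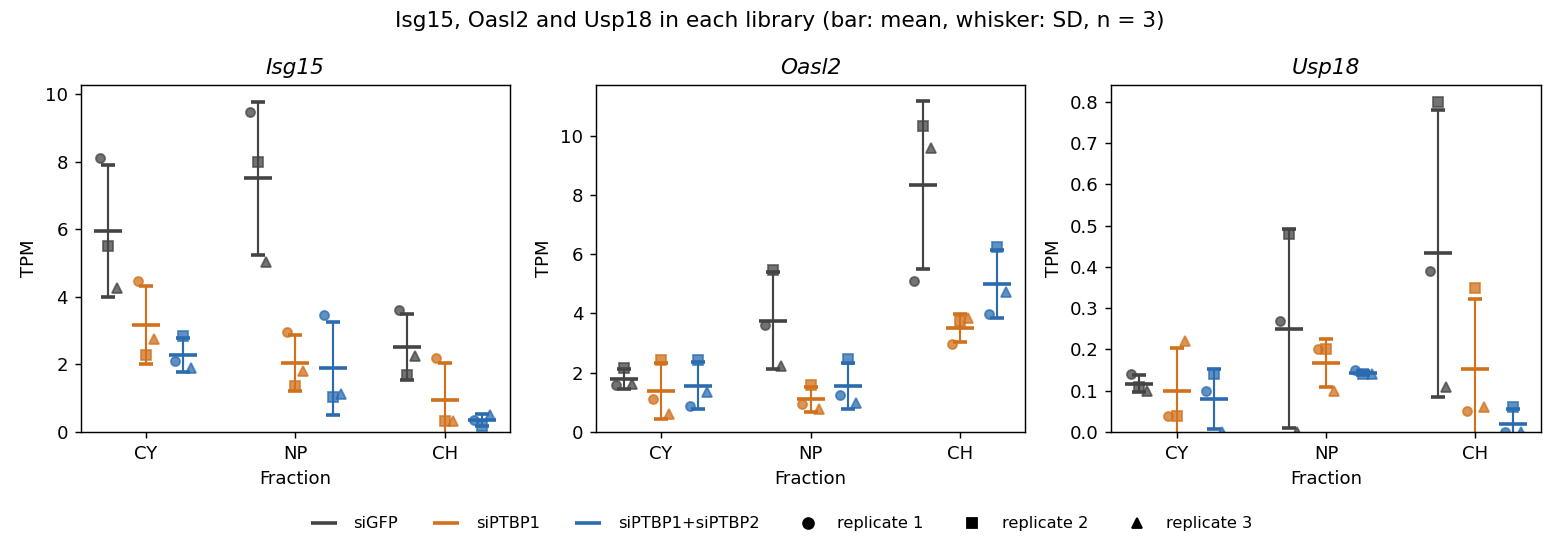
TPM of Isg15, Oasl2 and Usp18 in each library of cytoplasm (CY), nucleoplasm (NP) and chromatin (CH); symbols mark the replicate number, colours the siRNA, long bars the mean and whiskers the SD (n = 3), which stop at 0 where the SD exceeds the mean. Isg15 means after knockdown lie at 13.9% to 53.2% of siGFP, and Usp18 stays at or below 0.8 TPM.

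The members that were too low to test are listed by their values. Usp18 (chr6:121245906-121270917, plus strand), the protease that removes ISG15 from proteins and damps the receptor, was at 0.39, 0.8 and 0.11 TPM in siGFP chromatin, 0.05, 0.35 and 0.06 in siPTBP1 and 0, 0.06 and 0 in the double knockdown. The double knockdown libraries lay below all 3 controls in chromatin, at levels where single reads may decide the value. Ifit1 (chr19:34640871-34650009) and Ifit3 (chr19:34583531-34588731), whose proteins bind foreign RNA, reached at most 0.87 and 0.41 TPM, and 2 and 7 libraries listed them at 0. Irf7 (chr7:141262706-141266481, minus strand), the regulator that amplifies interferon production, reached at most 0.5 TPM and was listed at 0 in 5 libraries. Reads of Ifit1 and Ifit3 can be shared with their paralogs, and exons of Usp18 and Irf7 overlap antisense exons of Gm44148 and Phrf1.

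The subunits of ISGF3 and the tetherin gene kept overlapping levels after knockdown in nearly every group. Stat2 in chromatin gave 72.41, 148.75 and 78.29 TPM in siGFP, 63.37, 149.54 and 72.35 in siPTBP1 and 71.22, 141.63 and 75.01 in the double knockdown. Replicate 2 was the highest library of Stat2 in 9 of 9 groups, and its excess over the other replicates was larger than any difference between treatment means of the same fraction. The Stat2 differences from siGFP in chromatin were −0.10 and −0.05, with an SE of 0.48, or 0.17 with the block (adjusted p = 0.855 and 0.95 with the block). Stat2 was below its same-numbered control in 15 of 18 pairs, by amounts that neither fit called.

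Irf9 in nucleoplasm was at 6.01, 6.63 and 6.65 TPM in siGFP and 4.19, 5.56 and 5.3 in the double knockdown, which did not overlap. A group wholly below siGFP was also seen for 5.57% of all tested genes in that comparison, and the Irf9 difference was not called. In cytoplasm the double knockdown of Irf9, at 2.32, 5.08 and 5.24 TPM against 5.21, 6.35 and 6.45, differed by −0.48 ± 0.22 (unadjusted p = 0.0441, adjusted p = 0.978, limma). Replicate 1 was the lowest library of that group. Bst2 in nucleoplasm averaged 156 ± 10.6 TPM in siGFP, 161 ± 26.5 in siPTBP1 and 159 ± 21.6 in the double knockdown, with overlap.

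**Figure D3:**
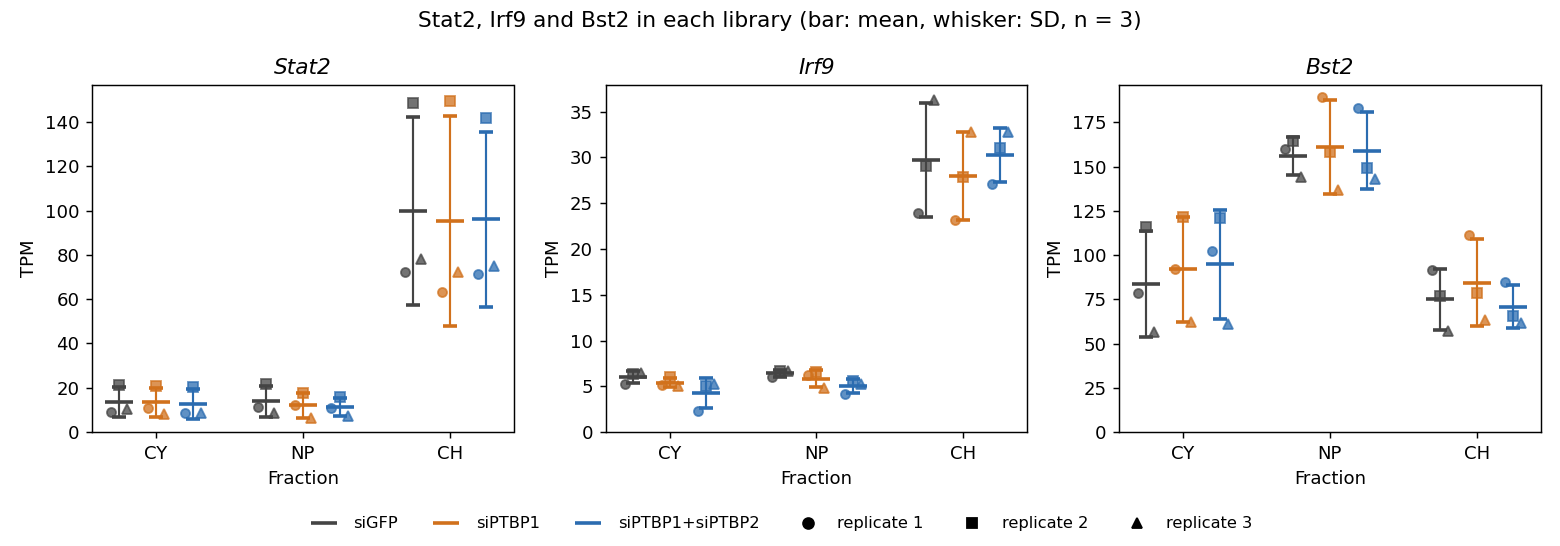
TPM of Stat2, Irf9 and Bst2 in each library, drawn with the same symbols, bars and whiskers as the plot of Isg15, Oasl2 and Usp18. Replicate 2 is the highest Stat2 library in 9 of 9 groups, and the Stat2 libraries of the 3 treatments overlap within each fraction.

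**Figure D4:**
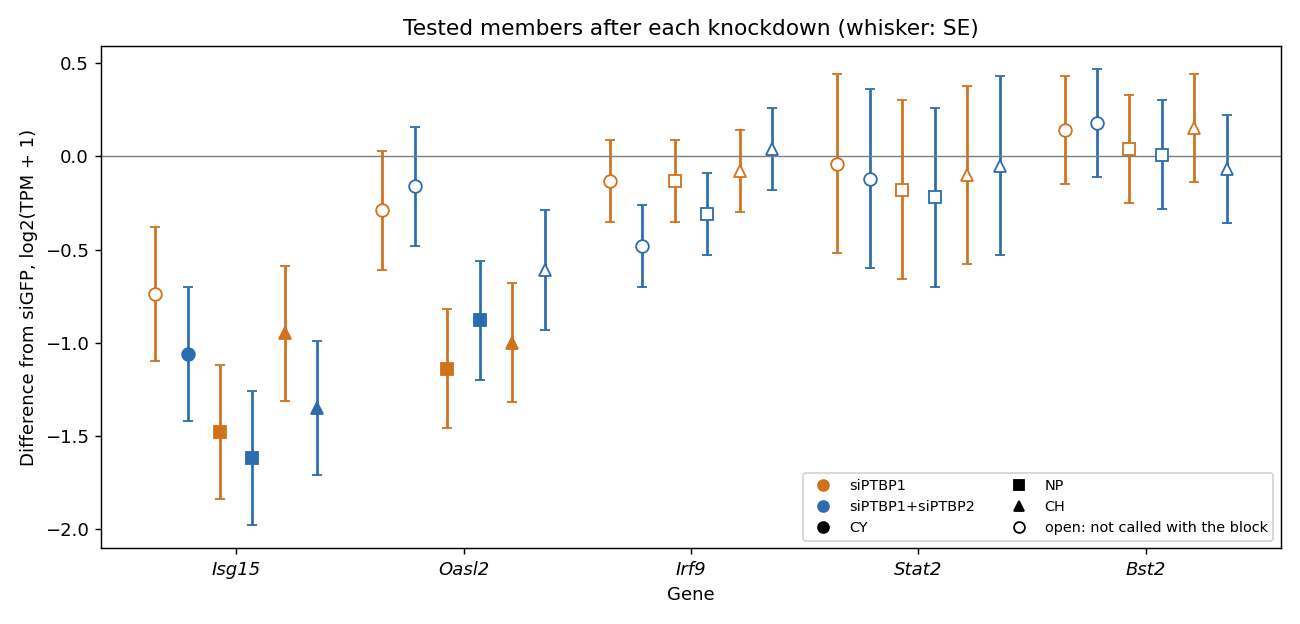
Differences of each knockdown from siGFP in CY (circles), NP (squares) and CH (triangles) on the log2(TPM + 1) scale, with the SE of the fit with no block; filled symbols were called with the replicate block. Isg15 has 5 filled symbols, from −0.95 to −1.62, and Oasl2 has 3, from −0.88 to −1.14; Irf9, Stat2 and Bst2 have none.

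The knockdowns were then compared with each other and between fractions. Between the double knockdown and siPTBP1, 0 of the 5 members were called in CY, NP or CH by either fit, and 0 reached an unadjusted p under 0.05. Few genes of any kind were called there: 0.0%, 0.00485% and 0.107% of those tested without the block, and 0.00485%, 0.00485% and 0.0825% with it. In chromatin Isg15 differed between them by −0.40 ± 0.36, which became 0.0 without the replicate 1 libraries. The effect of each knockdown in NP or CH minus its effect in CY was tested as an interaction, and 0 members were called by either fit, with 0 at an unadjusted p under 0.05. For NP minus CY, 0.00485% of all tested genes were called for each knockdown by each fit. For CH minus CY, 0.0437% were called for siPTBP1 and 0.0582% for the double knockdown without the block, and 0.194% and 0.383% with it. The larger nuclear differences of Isg15 and Oasl2 are therefore not shown to differ from the cytoplasmic ones.

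The wider interferon pathway was read from 5 lists with 142 genes in all, of which 107 were tested. Without the block 0 of the 107 were called in any comparison of a knockdown with siGFP, with 7, 10 and 8 genes at an unadjusted p under 0.05 for siPTBP1 and 10, 13 and 10 for the double knockdown in CY, NP and CH. With the block 3, 7 and 8 genes fell after siPTBP1 and 3, 7 and 4 after the double knockdown, and 0 rose. As shares of the 107 these were 2.8%, 6.54% and 7.48%, and 2.8%, 6.54% and 3.74%, beside the 0.475% to 0.951% given above for all tested genes. Of all tested genes, 1.33%, 1.2% and 1.82% were called higher with the block for siPTBP1 and 1.7%, 1.14% and 1.64% for the double knockdown. The lists were chosen with earlier results of these data known, and the 6 comparisons share their 3 siGFP groups.

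Among ligands and receptors, 6 of 18 genes were tested and 0 were called. The ligands Ifnb1, Ifna1, Ifna4, Ifna5, Ifna13, Ifnk, Ifng, Ifnl2 and Ifnl3 were listed at 0 in all 27 libraries. The receptor subunit Ifnar1 was present, at 5.52, 9.52 and 12.12 TPM in siGFP cytoplasm and 7.79, 10.6 and 13.68 in siPTBP1 cytoplasm, with overlap. In chromatin Ifnar1 read 25.17, 32.4 and 31.32 TPM in siGFP and 34.13, 33.67 and 35.47 in siPTBP1, wholly above the control but not called. The double knockdown libraries in chromatin overlapped the control. Among the 17 JAK-STAT genes, all tested, 1 fell with the block in nucleoplasm after either knockdown, the transcription factor Irf1. Irf1 in nucleoplasm read 46.11, 35.5 and 36.49 TPM in siGFP, 30.87, 25.58 and 20.2 in siPTBP1, and 30.0, 21.68 and 22.92 in the double knockdown. Both knockdowns were wholly below the control, by −0.61 ± 0.19 (adjusted p = 0.0379 with the block, 0.397 without) and −0.65 ± 0.19 (0.0277 with, 0.306 without).

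Of 28 sensors and adaptors 22 were tested, and 1 was called with the block, in chromatin after either knockdown. This was Ticam1, the adaptor TRIF that carries signals from Toll-like receptor 3. It was at 5.85, 3.65 and 3.61 TPM in siGFP chromatin and 2.02, 1.78 and 1.46 in siPTBP1, with no overlap and a difference of −0.94 ± 0.25 (adjusted p = 0.00328 with the block, 0.113 without). In the double knockdown it was at 3.76, 1.42 and 1.77 TPM, which overlapped the control through replicate 1 (adjusted p = 0.0193 with the block).

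Other interferon-stimulated effectors supplied most of the calls. Of 65 listed, 48 were tested, and with the block 3, 6 and 6 fell after siPTBP1 and 3, 5 and 3 after the double knockdown in CY, NP and CH. The median difference of the 48 was −0.10, −0.21 and −0.11 for siPTBP1 and −0.13, −0.20 and −0.13 for the double knockdown. The medians of all tested genes in the same order were 0.06, −0.01 and 0.09, then 0.0, −0.01 and 0.07. The genes called in at least 1 comparison were Ifi35, Oas1a, Oas1g, Xaf1, Gbp2, Gbp3, Gbp7, Irgm1 and Ddx60. Leaving out the replicate 1 libraries gave calls in limma with no block, not all of them shared with the block. For siPTBP1 these included Ifi35 in CY (adjusted p = 0.0137) and NP (0.0452), and Gbp2 (0.0273), Gbp3 (0.0249) and Ticam1 (0.0438) in CH. For the double knockdown they included Ifi35 in NP (0.042), and Gbp2 (0.0346) and Ticam1 (0.0362) in CH. Gbp2 in CH was not called with the block for siPTBP1 or the double knockdown (adjusted p = 0.17 and 0.111, limma). Its left-out replicate 1 libraries in CH were at 5.71 TPM in siGFP, 7.05 in siPTBP1 and 4.84 in the double knockdown.

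Ifi35, an interferon-induced leucine zipper protein, was at 12.07, 10.59 and 11.08 TPM in siGFP cytoplasm and 7.67, 4.06 and 3.4 in siPTBP1. The groups did not overlap, and the difference of −1.08 ± 0.26 was called with the block (adjusted p = 0.00189, 0.129 without). Xaf1, an antagonist of the apoptosis inhibitor XIAP, was at 11.74, 11.6 and 9.66 TPM in siGFP chromatin and 5.81, 6.17 and 6.16 in siPTBP1. These did not overlap either (−0.76 ± 0.18, adjusted p = 0.0121 with the block, 0.0685 without).

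Gbp2, a guanylate-binding GTPase that acts against intracellular pathogens, had the most negative differences of the lists in nucleoplasm. It read 12.54, 15.35 and 15.3 TPM in siGFP, 4.14, 5.75 and 7.13 in siPTBP1 and 3.32, 5.58 and 7.03 in the double knockdown. Every knockdown library lay below every control, by −1.23 ± 0.33 and −1.33 ± 0.33 (adjusted p = 0.0209 and 0.0126 with the block, 0.249 and 0.163 without). Its relatives Gbp3 and Gbp7 were called with the block in chromatin after either knockdown.

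Oas1a and Oas1g encode 2′-5′ oligoadenylate synthetases, which make the activator of the RNA-degrading enzyme RNase L. Oas1a in cytoplasm was at 9.58, 5.25 and 5.31 TPM in siGFP, 5.38, 2.56 and 2.23 in siPTBP1 and 6.39, 3.14 and 2.24 in the double knockdown. Each knockdown library was below the control of its number although the groups overlapped (−0.84 ± 0.42 and −0.69 ± 0.42; adjusted p = 0.00476 and 0.0171 with the block, 1.0 without for both). The Oas1 genes are near-identical copies, as are parts of the Gbp family, so reads can be split between them and their separate values are uncertain.

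Among 15 antigen presentation genes, 14 were tested, and the immunoproteasome subunit Psmb8 was called with the block in siPTBP1 chromatin (−0.99 ± 0.50, adjusted p = 0.0175, 0.793 without) and in double knockdown nucleoplasm (−0.90 ± 0.50, adjusted p = 0.0393, 1.0 without). The most abundant genes of the effector list, Ifitm2, Pml, Ifitm1 and Ifitm3, averaged 389, 232, 215 and 142 TPM over the 27 libraries and were not called. After knockdown Ifitm1 lay at 61.3% to 74.5% of its siGFP mean, while Ifitm2, Pml and Ifitm3 ranged from 77.3% to 115%. Psmb10, Psme2, Psme1 and H2-K1, the most abundant of the antigen presentation list, averaged 126, 112, 89.9 and 72.0 TPM and were not called. Psme2 lay at 67.8% to 86.2% of its siGFP mean, while Psmb10, Psme1 and H2-K1 ranged from 67.9% to 117%.

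**Figure D5:**
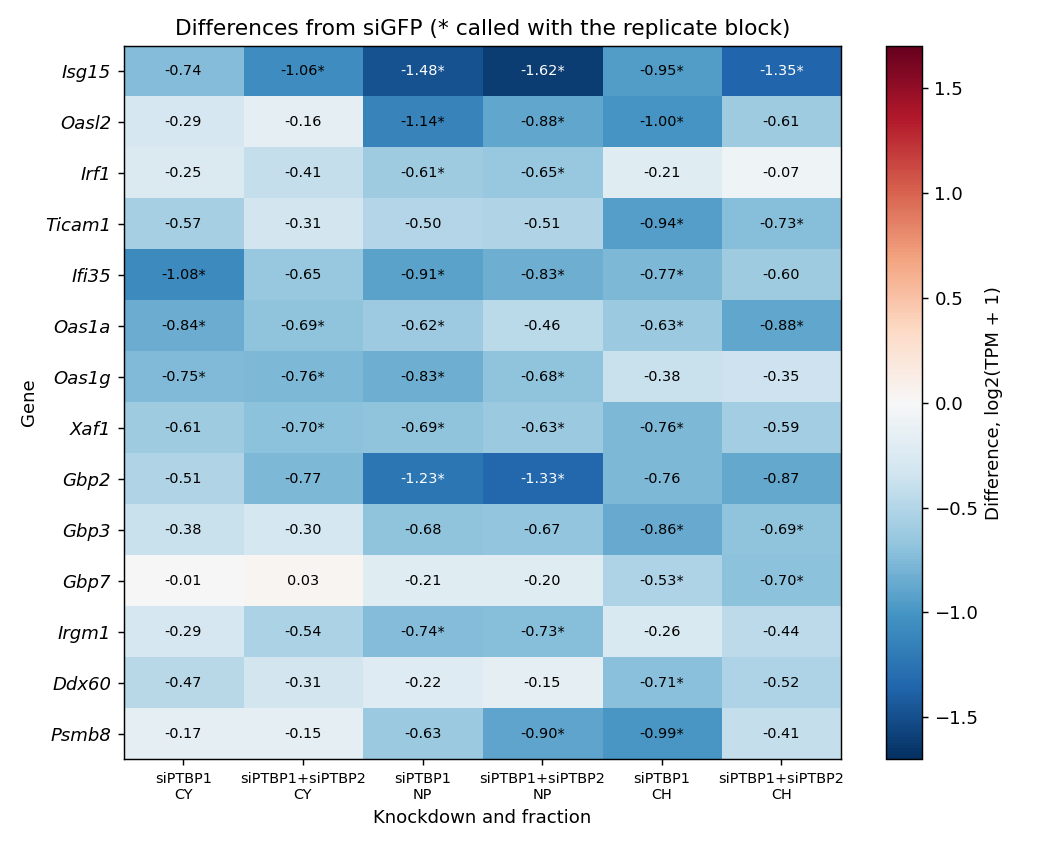
Differences from siGFP on the log2(TPM + 1) scale for Isg15, Oasl2 and the 12 pathway genes called with the block in at least 1 of the 6 comparisons, which were picked for those calls; each cell prints its difference and an asterisk marks a call. Blue cells are lower after knockdown, and the largest difference is −1.62, for Isg15 in double knockdown nucleoplasm.

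Most pluripotency markers had lower estimates in the same libraries. Without the block 0 of the 15 were called in any of the 6 comparisons with siGFP. The summed level of 15 such markers was 4770 to 5270 TPM in siGFP nucleoplasm, 3560 to 4720 in siPTBP1 and 3470 to 4440 in the double knockdown, and 14 and 15 of the 15 differences were negative. The share of negative differences over all tested genes was 54.2% and 52.4% in these nucleoplasm comparisons. With the block 1 of the 15, Zfp42, was called lower in each of these comparisons, 4 in double knockdown cytoplasm (Klf4, Nanog, Fgf4 and Zfp42), 0 in siPTBP1 cytoplasm, and 1, Fgf4, in chromatin after either knockdown. Over the 6 comparisons, 0.475% to 0.951% of all tested genes were called lower with the block. In cytoplasm the sums were 5080 to 5440, 4170 to 4840 and 4310 to 5120 TPM, and in chromatin 2800 to 3400, 2040 to 3310 and 2020 to 2830. The summed level of 9 immune cell markers stayed between 25.7 and 46.5 TPM in nucleoplasm, and no marker of that list was called there by either fit. The summed level of 10 fibroblast markers was 86.7 to 162 TPM in siGFP chromatin, 54.0 to 81.5 in siPTBP1 and 62.8 to 136 in the double knockdown. In nucleoplasm it was 35.2 to 56.4, 43.7 to 80.6 and 45.2 to 74.8 TPM. Of 8 endoderm markers 6 were tested, with 0 and 2 negative differences in cytoplasm for siPTBP1 and the double knockdown. Their summed level there was 3.8 to 7.05 TPM in siGFP, 6.92 to 9.24 in siPTBP1 and 6.85 to 8.52 in the double knockdown. Foxa2 was called higher with the block in double knockdown cytoplasm, as were 1.7% of all tested genes. The part of the pluripotency, fibroblast and endoderm markers in the levels of Isg15 and Oasl2 was not tested.

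The members did not vary as 1 group. With the mean of each fraction removed, Pearson's r over the 27 libraries was 0.62 between Oasl2 and Stat2, 0.47 between Oasl2 and Irf9 and 0.46 between Oasl2 and Isg15. It was −0.01 between Isg15 and Stat2 and −0.35 between Irf9 and Bst2. Isg15 was highest in replicate 1 in 7 of 9 groups, Oasl2 in replicate 2 in 8 and Stat2 in replicate 2 in 9. Likeness to the mean of the 5 members was ranked over 12699 other tested genes, leaving out those with a mean TPM under 1 and those named only as predicted genes or clones. The highest were Cxcl16 (r = 0.857), Pfkp (0.853), Plekha2 (0.852), Actn3 (0.848), Nccrp1 (0.847), Narf (0.842), Tcf7 (0.836), Gstm3 (0.835), Cdhr1 (0.831) and Mrnip (0.831). The libraries share replicate numbers and treatments, so the correlations are a description.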

How the data were processed

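The authors deposited 1 table of TPM per gene for the 27 libraries; STAR, kallisto and mm10 are named per the submitters' processing notes, with no versions, and for the annotation release the sources used here give none. Gene TPM mixes spliced and unspliced RNA, keeps no depth and allows no counting interval. Coordinates are from GENCODE M21 (GRCm38), promoters from RefSeq.

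Groups came from the labels. The fits used limma 3.58.1 (R 4.3.3) on values taken as log2(TPM + 1) (9 group means, 18 residual degrees of freedom, trend and robust settings, two-sided, Benjamini-Hochberg). Only the fit with no block was tested on simulated data, for siPTBP1 against siGFP in CY. The simulated noise was independent between libraries, and the fit with the replicate block was not tested in this way. Among 108 pairs sharing a replicate number, the lowest correlation of deviations was 0.13 and the median 0.365 (−0.213 where neither number nor group was shared). Deviations from a group mean cancel within the group, so the negative value follows from the positive ones and is no separate evidence. The pairing comes from these correlations, not the labels, and the fit with the replicate block has 16 residual degrees of freedom. Members and lists were chosen with earlier results of these data known. All members were named, with every list gene called in a knockdown comparison, the 4 most abundant of a list, and the 10 genes most like the members' mean. Other pseudocounts, filters, scalings and left-out libraries were tried.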

Additional observations from a re-analysis of the deposited data

How the results depend on the processing

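The number of tested members called was 0 in each knockdown comparison and 1, 4 and 5 for NP against CY, CH against CY and CH against NP. With the replicate block it was 2 in siPTBP1 NP, 2 in siPTBP1 CH, 1 in double knockdown CY, 2 in double knockdown NP, 1 in double knockdown CH and 2 for NP against CY, and the block changed no other of these counts. Without the replicate 1 libraries it was 1 in NP and in CH for siPTBP1, 1 in NP and in CH for the double knockdown, and 0 for NP against CY. With quantile normalization it was 1 in siPTBP1 NP and 0 for NP against CY, which was also 0 with no filter, with median-ratio scaling and with the compared groups alone. With a mean TPM of at least 5 fewer members were tested, and it was 2 for CH against CY and 3 for CH against NP. Leaving out 1 library gave 0 to 1 in double knockdown NP and 0 to 1 for NP against CY. Isg15 in CH, double knockdown against siPTBP1, went from −0.40 to 0.0 without the replicate 1 libraries and ranged from −0.62 to 0.02 with 1 library left out. Of 876 recomputed member differences 836 kept their call, 21 lost it, 17 gained it and 2 changed sign from a difference of 1 SE or more. Among members and named genes, another 90 differences smaller than 1 SE changed sign, none of them called. The depth behind each TPM is unknown, which limits Usp18, Ifit1, Ifit3 and Irf7 most. With no filter Ifit1 was called higher in CH than in CY of siGFP (adjusted p = 0.0224, limma).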
